A study of Mus musculus with 8 samples.

Results

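The interferon-inducible GTPases described here are 9 mouse genes chosen by symbol: the immunity-related GTPases (IRGs) Iigp1, Gm4951, Irgm1, Irgm2 and Igtp, and the guanylate-binding proteins (GBPs) Gbp2, Gbp3, Gbp5 and Gbp7. They are 9 of 14485 genes listed in at least 1 of 2 tables, and all 9 have a row in both. The libraries came from macrophages grown from bone marrow of female mice aged 12 weeks, through 7 days in medium with 30% supernatant of L929 fibroblasts, a source of the growth factor M-CSF, and replating in 5%. The groups were NIK KO with IL-4, WT with IL-4, NIK KO with PBS and WT with PBS. NIK is a kinase of the noncanonical NF-κB pathway, and interleukin 4 (IL-4) is the cytokine of alternative macrophage activation. IL-4 was given at 20 ng/mL and both treatments lasted 6 hours. Each group held 2 libraries, and the same 2 mice per genotype stand behind both treatments. The sources used here do not say which part of Map3k14, the gene of NIK, was removed, or whether the loss was limited to some cells.

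Interferon-γ and type I interferons switch these genes on in macrophages through transcription factors that bind the GAS and ISRE elements of their promoters. The IRG proteins gather on vacuoles that hold intracellular parasites and bacteria and help to break them open. Irgm1, Irgm2 and Igtp (also called Irgm3) are the regulatory IRGs, which sit on host membranes and keep effector IRGs such as Iigp1 (also called Irga6) from acting there. GBPs coat bacteria and parasite vacuoles and feed into inflammasome activation. IL-4 acts through STAT6 and is known to oppose part of the interferon-γ programme in macrophages.

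The promoters of 7 members are in the RefSeq table of build GRCm38.p6, which holds 250 bases before and 50 bases after each start site, with 8 start sites for these genes since Gbp3 has a pair. Those of Iigp1 and Gm4951 were not used. At 7 of the 8 start sites, and for each of the 7 genes, the window held the core of the interferon-stimulated response element (ISRE), searched on both strands as GAAA, 2 bases of any kind and GAAA again. This core is in 3.44% of all 32851 windows of the same length. The core of the interferon-γ activated site (GAS), TTCNNNGAA, which reads alike on both strands, was found in 4 of the 7 genes (Irgm2, Igtp, Gbp5 and Gbp7), against 8.30% of all windows. Both cores stood together in those 4 genes and in 0.454% of all windows. The NF-κB consensus, searched on both strands, was matched in Gbp5 alone among the 7 genes, against 4.51% of all windows. A match describes the letters of a window and does not show binding.

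The 120 bases before the start site are shown for 6 start sites, with ISRE and GAS cores in capitals. Irgm2 (chr11:58214857-58214976, plus strand) and Igtp (chr11:58199436-58199555, plus strand) are neighbours on chromosome 11. Irgm1 (chr11:48871421-48871540, minus strand) and Gbp3 (chr3:142559924-142560043, plus strand) have overlapping ISRE cores. Gbp7 (chr3:142530216-142530335, plus strand) has 2 GAS cores upstream of an ISRE core, and Gbp2 (chr3:142620543-142620662, plus strand) has an ISRE core with no GAS core.
Irgm2: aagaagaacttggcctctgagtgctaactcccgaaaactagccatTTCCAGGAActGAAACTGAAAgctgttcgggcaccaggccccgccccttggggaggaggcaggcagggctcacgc
Igtp: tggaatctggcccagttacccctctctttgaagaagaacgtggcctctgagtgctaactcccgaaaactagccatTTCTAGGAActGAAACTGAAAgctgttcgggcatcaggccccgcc
Irgm1: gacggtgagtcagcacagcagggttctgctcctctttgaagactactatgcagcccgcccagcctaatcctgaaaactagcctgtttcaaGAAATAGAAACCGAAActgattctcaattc
Gbp3: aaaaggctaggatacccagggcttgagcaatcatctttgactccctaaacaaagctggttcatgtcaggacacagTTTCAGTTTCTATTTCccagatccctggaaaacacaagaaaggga
Gbp7: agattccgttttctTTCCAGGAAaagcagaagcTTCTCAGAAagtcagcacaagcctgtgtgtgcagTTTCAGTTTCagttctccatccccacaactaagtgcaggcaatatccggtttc
Gbp2: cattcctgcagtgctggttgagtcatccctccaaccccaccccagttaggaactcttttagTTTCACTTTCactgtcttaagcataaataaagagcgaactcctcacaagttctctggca

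In Irgm2 and Igtp a GAS core and an ISRE core follow each other with 2 bases between them. Aligned on the GAS core without gaps, the windows of this neighbouring pair were identical at 184 of 270 bases (68.1%). In the GBP windows shown the ISRE core lies on the opposite strand, and it ends 30 bases before the start in Gbp3, 44 in Gbp7 and 50 in Gbp2. The map of motif matches shows that the ISRE core lies within 64 bases of the start in 6 genes, with Gbp5 as the exception, where it starts at position -165.

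**Figure D1:**
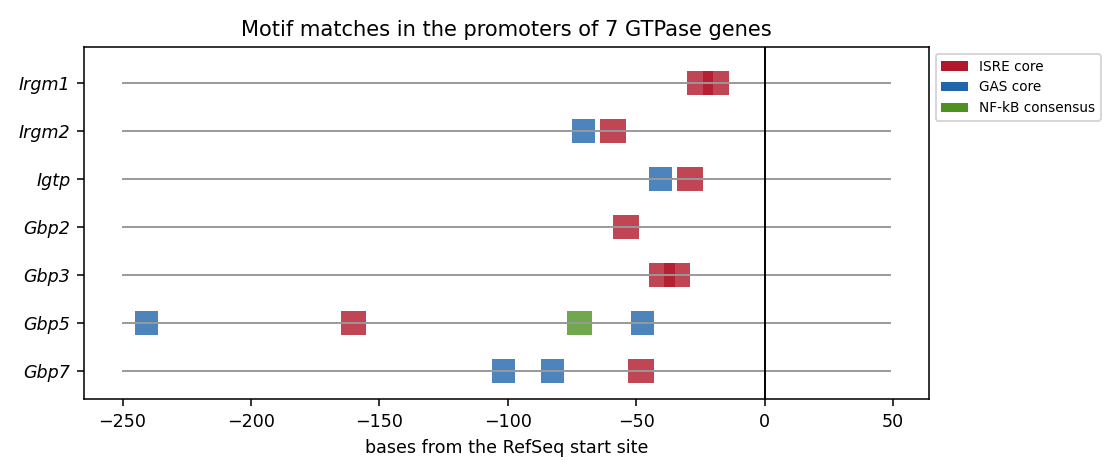
Matches of the ISRE core, the GAS core and the NF-κB consensus in the RefSeq promoter windows of 7 GTPase genes, plotted by bases from the start site (vertical line), darker where 2 matches overlap. Each gene has at least 1 ISRE match, and 4 genes also have a GAS match.

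The deposited tables hold 1 value per gene and comparison, so no value per library can be given and the depth is unknown. Group means were recovered from the base mean (the mean of size-factor-normalized counts over the 4 libraries of a table) and the fold change. The standard error (SE) of the log2 fold change is the only measure of error given. It does not separate spread between mice from counting noise. The median SE was 0.22 with IL-4 and 0.30 with PBS, over the 9513 and 9266 genes whose base mean reached 100. Fold changes are taken as NIK KO over WT, which the name of the IL-4 table gives and the name of the PBS table does not. On the side read as NIK KO, Map3k14 was the higher one, by 0.99 ± 0.22 with IL-4 and 1.09 ± 0.28 with PBS on the log2 scale (authors' deposited tables). The name NIK KO below therefore means the libraries that carry this label. If both tables ran the other way, every genotype difference given here would change sign. If the PBS table alone did, its genotype means would swap. That also changes the comparisons between treatments, and the main ones are given below under both readings. Read in the same direction, Kpna2, an importin gene with one of the largest changes, has the same sign in both of the authors' deposited tables. It is at -3.93 ± 0.25 with IL-4 and -4.58 ± 0.28 with PBS. Gm10184 (8.44 ± 0.42 with IL-4 and 13.84 ± 1.47 with PBS in the authors' deposited tables) and Map3k14 also keep their sign. With the PBS table alone turned, these genes would have opposite signs at the 2 treatments in cells of the same mice. Macrophage markers were all measured (10 of 10, summed mean 495196 in NIK KO and 517736 in WT with IL-4, 646092 in NIK KO and 631732 in WT with PBS). Most of that sum is Lyz2, the lysozyme gene, and 7 of the 10 markers were above 0 in each table. Among them Adgre1 (F4/80) is at 0.54 ± 0.18 with IL-4, DESeq2 adjusted p = 0.672, and 0.35 ± 0.33 with PBS in the authors' deposited tables. Below 0 were 3 in each table. These included Lyz2 (-0.22 ± 0.15) and Cd14 (-0.17 ± 0.64) with IL-4, and Cd68 (-0.37 ± 0.23) and Cd14 (-0.20 ± 0.36) with PBS (authors' deposited tables). In bulk RNA, a change in RNA per cell and a change in the number of expressing cells cannot be told apart.

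The NIK KO against WT contrast was used to choose the members, so its values describe them and test nothing. Iigp1 and Gm4951, which are neighbours on chromosome 18, had more than 2-fold the WT level in the libraries labelled NIK KO, with IL-4 and with PBS alike. The other 7 members lay between -0.02 and 0.30 with IL-4 and between 0.16 and 0.56 with PBS on the log2 scale in the authors' deposited tables. With IL-4, 8 of 9 members had a log2 fold change above 0, where 50.2% of genes of base mean 10 or more did. With PBS it was 9 of 9, against 48.7%. The member median was 0.23 with IL-4 and 0.39 with PBS (all genes, -0.01 each).

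Iigp1 encodes an effector IRG that is loaded onto parasite vacuoles (ENSMUSG00000054072). Its mean normalized count with IL-4 was 251 in NIK KO and 108 in WT. With PBS it was 471 in NIK KO and 203 in WT. The fold was nearly the same at both treatments although the level was lower with IL-4: the authors' deposited tables give 1.22 ± 0.35 with IL-4 and 1.21 ± 0.42 with PBS. With PBS, 94.2% of genes at base mean 100 or above had a smaller SE than Iigp1.

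Gm4951 is a relative of Iigp1 and belongs to the same IRG group (ENSMUSG00000073555). Its mean normalized count with IL-4 was 486 in NIK KO and 207 in WT. With PBS it was 406 in NIK KO and 199.8 in WT. The authors' deposited tables give 1.23 ± 0.26 with IL-4 and 1.02 ± 0.35 with PBS. Of the 2 genes it had the smaller error, and it ranked 3 from the top by Wald statistic among all genes with IL-4, where Iigp1 ranked 19. With PBS, in the direction read here, Gm4951 ranked 13 and Iigp1 15, and in the other direction they would stand as near to the bottom.

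At an adjusted p under 0.05, the authors' deposited tables call 1 of 9 members with IL-4, Gm4951 (DESeq2 adjusted p = 0.00366), where 0.125% of all genes with an adjusted p are called and 0.0513% are called as higher. Iigp1 has a DESeq2 adjusted p of 0.162 there. With PBS DESeq2 called 0 of 9, against 0.0366% of all genes and 0.0146% as higher. At an unadjusted p under 0.05 stand 2 members with IL-4 (2.95% of all genes) and 3 with PBS (1.24%): Iigp1, Gm4951 and, with PBS, Irgm2. These counts come from the contrast that chose the members.

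**Figure D2:**
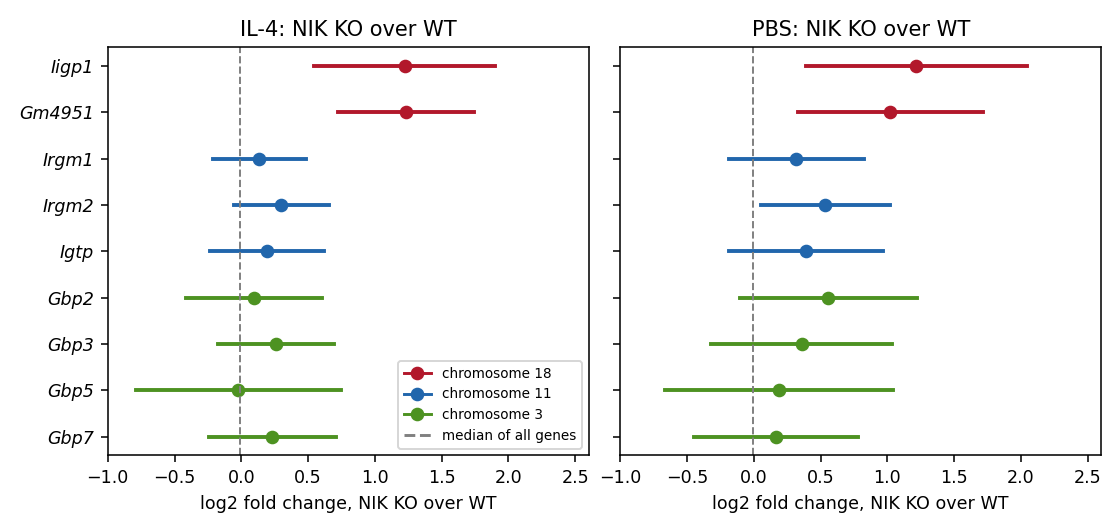
Log2 fold change of each GTPase gene, NIK KO over WT, with IL-4 (left) and PBS (right), as points with 95% intervals from the deposited standard errors, coloured by chromosome. Iigp1 and Gm4951 lie above 1 in both panels, and the other 7 lie between -0.02 and 0.56.

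Among the regulatory IRGs, Irgm2 stood furthest from 0. It had 1317 mean normalized counts in NIK KO and 1070 in WT with IL-4, and 1841 in NIK KO and 1270.5 in WT with PBS. The authors' deposited tables give Irgm2 0.30 ± 0.18 with IL-4 and 0.54 ± 0.25 with PBS. Its 95% interval with PBS ran from 0.06 to 1.02 and with IL-4 from -0.06 to 0.66.

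Igtp had 860 mean normalized counts in NIK KO and 754 in WT with IL-4, and 1476 in NIK KO and 1127 in WT with PBS. In the authors' deposited tables Igtp is at 0.19 ± 0.22 with IL-4 and 0.39 ± 0.30 with PBS. Irgm1, whose loss in mice is known to cripple resistance to several intracellular pathogens, was the more abundant. It had 2842 in NIK KO and 2587 in WT with IL-4, and 3868 in NIK KO and 3105 in WT with PBS. The authors' deposited tables give Irgm1 0.14 ± 0.18 with IL-4 and 0.32 ± 0.26 with PBS. All 3 regulatory IRGs were thus higher in the libraries labelled NIK KO by about 1 SE or more with PBS and by 0.77 to 1.65 SE with IL-4.

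Gbp2, a GBP that coats vacuoles and carries a lipid anchor, had 3209 mean normalized counts in NIK KO and 3000.4 in WT with IL-4. With PBS it had 3492 in NIK KO and 2376 in WT. The authors' deposited tables give Gbp2 0.10 ± 0.26 with IL-4 and 0.56 ± 0.34 with PBS. The genotypes differed by 1.07-fold with IL-4 and by 1.47-fold with PBS.

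Gbp3 had 1046 in NIK KO and 872 in WT with IL-4, and 1904 in NIK KO and 1486 in WT with PBS, as mean normalized counts. In the authors' deposited tables Gbp3 is at 0.26 ± 0.22 with IL-4 and 0.36 ± 0.35 with PBS. Gbp7 had 662 in NIK KO and 565 in WT with IL-4, and 939 in NIK KO and 838 in WT with PBS. The authors' deposited tables put Gbp7 at 0.23 ± 0.24 with IL-4 and 0.16 ± 0.31 with PBS. Both were higher in the libraries labelled NIK KO by less than 1.2 SE.

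Gbp5, which is known to promote NLRP3 inflammasome assembly, was the member nearest to no difference with IL-4. It had 321 mean normalized counts in NIK KO and 326 in WT with IL-4, and 503 in NIK KO and 442 in WT with PBS. In the authors' deposited tables Gbp5 is at -0.02 ± 0.39 with IL-4 and 0.19 ± 0.44 with PBS. Its SE exceeded that of 95.7% (IL-4) and 95.8% (PBS) of genes at base mean 100 or above, so its 95% interval with IL-4 reached from -0.79 to 0.74.

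**Figure D3:**
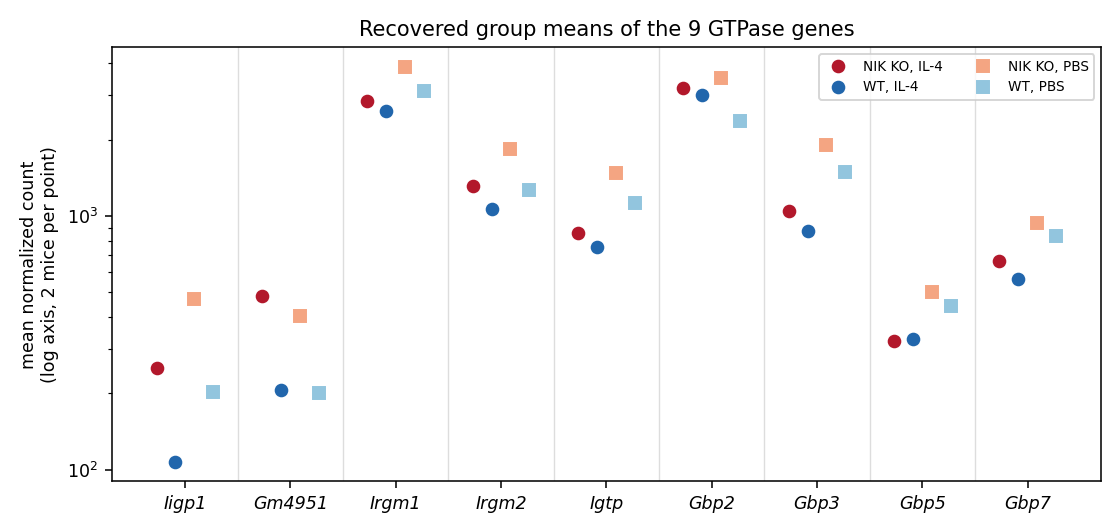
Group means of the 9 GTPase genes as mean normalized counts on a log axis, recovered from the base mean and fold change, with 1 point for each of the 4 groups of 2 mice. In Iigp1 both IL-4 points lie below the PBS points of the same genotype, while in Gm4951 they do not.

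Per kilobase of the longest GENCODE M21 transcript, the order of levels in NIK KO with IL-4 was Gbp2 (1276 mean normalized counts per kilobase), Irgm1 (742), Igtp (425), Gbp3 (390), Irgm2 (373), Gm4951 (184), Gbp7 (118), Gbp5 (85.5) and Iigp1 (80.5). In WT with IL-4 Gbp2 and Irgm1 also led (1193 and 675), and Iigp1 was last (34.5). Igtp, Gbp3 and Irgm2 had 373, 325 and 303 per kilobase in WT with IL-4, and no error per group is given with which to rank these neighbours. Sequence sharing is a limit on closely related members. Of the 31-base words in Igtp, 16.4% are also in Irgm2. In Gm4951 10.4% are in Iigp1, and in Iigp1 8.80% are in Gm4951. In the other members, between 1.68% and 14.8% of words are shared with any other gene, 14.8% in Gbp7 and 1.68% in Irgm1.

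The chromosome 18 pair shared its genotype difference with the IRG gene between them. F830016B08Rik, another IRG that lies between Gm4951 and Iigp1 among measured genes and is not a member, is at 1.20 ± 0.48 with IL-4 and 0.90 ± 0.54 with PBS in the authors' deposited tables. Its mean normalized count was 100.2 in NIK KO and 43.5 in WT with IL-4, and 74.5 in NIK KO and 39.8 in WT with PBS. The 3 neighbouring IRGs were therefore alike in size, from 1.20 to 1.23 with IL-4 and from 0.90 to 1.21 with PBS. The 10 nearest measured genes on both sides, chosen after their values were seen, lay between -0.30 and 0.23 with IL-4 (median -0.04). With PBS they had a median of 0.04, and 9 of them lay between -0.65 and 0.27 while Chsy3 was at 2.20 ± 1.04 (authors' deposited table). The lowest of the 9, Synpo, had an SE of 1.13.

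**Figure D4:**
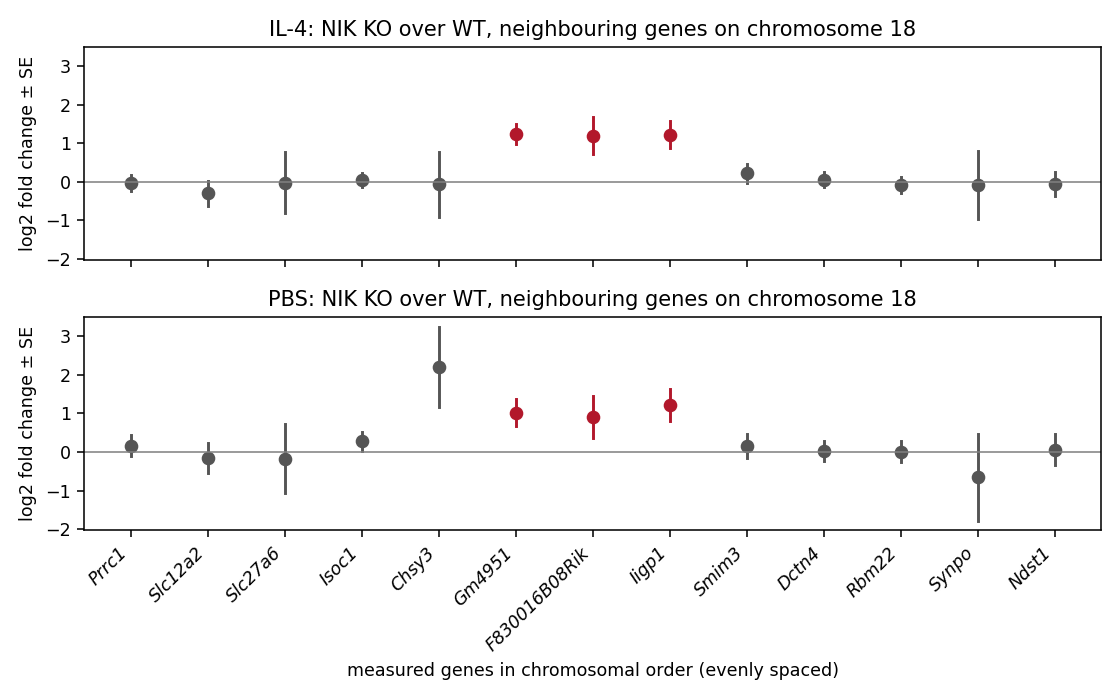
Log2 fold change, NIK KO over WT, with IL-4 (top) and PBS (bottom) for Gm4951, F830016B08Rik, Iigp1 (red) and the 5 nearest measured genes on each side (grey), in chromosomal order, with bars of 1 standard error. The 3 IRG genes lie near 1 in both panels and the flanking genes lie near 0, apart from Chsy3 and, on the lower side, Synpo with PBS.

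By chromosome, the 11 inducible GTPases on chromosome 11 had a median log2 fold change of 0.28 with IL-4 and 0.39 with PBS, and with IL-4 they ranged from 0.10 to 0.41. With PBS they ranged from -0.55 to 1.00, and 9 of the 11 were above 0. The highest with PBS, Tgtp1, is at 1.00 ± 0.81 in the authors' deposited table, at a base mean of 40.0. The 4 GBP members on chromosome 3 had medians of 0.16 with IL-4 and 0.27 with PBS. The 4 GBPs on chromosome 5 had medians of 0.57 with IL-4 and 0.54 with PBS, and ranged from 0.39 to 1.13 with IL-4. Gbp4 was the furthest of these with IL-4, at 1.13 ± 0.44 with IL-4 and 0.54 ± 0.49 with PBS in the authors' deposited tables. In the authors' deposited tables Gbp6 is at 0.69 ± 0.31 with IL-4 and 0.56 ± 0.38 with PBS, and Gbp9 at 0.39 ± 0.18 with IL-4 and 0.35 ± 0.27 with PBS.

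Over the whole list of other inducible GTPases, 19 of 22 measured genes had a log2 fold change above 0 with IL-4 (median 0.37) and 17 of 20 with PBS (median 0.30). DESeq2 called 0 of them in each of the authors' deposited tables, and at an unadjusted p under 0.05 stood 5 with IL-4 and 1 with PBS, all higher in NIK KO. The background for higher genes at an unadjusted p under 0.05 was 1.62% with IL-4 and 0.534% with PBS. DESeq2 called 0.125% of all genes with IL-4 and 0.0366% with PBS. The 5 with IL-4 were Gbp4, F830016B08Rik, Gbp6, Gbp9 and Gvin1, a very large inducible GTPase at 0.39 ± 0.17 (authors' deposited table). The 1 with PBS was Tgtp2, an effector IRG at 0.66 ± 0.31 with PBS and 0.41 ± 0.25 with IL-4 (authors' deposited tables). The 3 genes below 0 with IL-4 were Mx2, an antiviral GTPase at -0.06 ± 0.35, and Gbp2b and Irgc1 at base means under 10. The 3 below 0 with PBS were 9930111J21Rik1 at -0.55 ± 0.48, Irgq at -0.33 ± 0.34 and 9930111J21Rik2 at -0.20 ± 0.32, each of which was above 0 with IL-4 (authors' deposited tables).

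Of the signalling genes upstream, DESeq2 called 0, where it called 0.125% of all genes with IL-4 and 0.0366% with PBS. At these shares, lists this short would rarely hold a called gene. An unadjusted p under 0.05 was found for 2.95% of all genes with IL-4 and 1.24% with PBS. All 6 measured interferon receptor genes lay within 1.4 SE of 0 in both of the authors' deposited tables, and DESeq2 called 0 of them, with 0 at an unadjusted p under 0.05. Ifngr1, the ligand-binding chain of the interferon-γ receptor, is at -0.12 ± 0.17 with IL-4 and -0.16 ± 0.24 with PBS, and Ifngr2, its signalling chain, at 0.00 ± 0.16 with IL-4 and 0.32 ± 0.24 with PBS in the authors' deposited tables. The interferon genes themselves were not analysed here. Of 14 JAK, STAT, IRF and BATF genes, 12 were above 0 with IL-4 (median 0.19) and 10 with PBS (median 0.04), and DESeq2 called 0 at either treatment, with 0 at an unadjusted p under 0.05. Irf1, which takes the interferon-γ signal further, is at -0.08 ± 0.17 with IL-4 and -0.04 ± 0.30 with PBS (authors' deposited tables).

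Other targets of the same factors differed between lists. Beside the counts below, DESeq2 called 0.125% of all genes with IL-4 and 0.0366% with PBS. An unadjusted p under 0.05 in either direction was found for 2.95% with IL-4 and 1.24% with PBS. Of interferon-γ targets other than GTPases, 13 of 24 were above 0 with IL-4 (median 0.04) and 14 of 23 with PBS (median 0.06), and DESeq2 called 0. Ciita, the transactivator of MHC class II genes, was the 1 gene at an unadjusted p under 0.05 in each table, at 0.72 ± 0.19 with IL-4 and 0.73 ± 0.32 with PBS (authors' deposited tables). Antiviral genes of the type I response were above 0 in 31 of 33 at each treatment, with medians of 0.18 with IL-4 and 0.27 with PBS. DESeq2 called 0 of these, and 4 at each treatment had an unadjusted p under 0.05, all higher in NIK KO. The share of all genes higher at that threshold was 1.62% with IL-4 and 0.534% with PBS. Negative regulators had medians of 0.04 with IL-4 and 0.03 with PBS, and 0 of 9 at an unadjusted p under 0.05 in the authors' deposited tables.

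Lists of genes that act with these GTPases had medians from -0.09 to -0.03 with IL-4 and from -0.04 to 0.14 with PBS (all genes, -0.01 each). Autophagy genes, among them the conjugation genes that direct IRGs and GBPs to vacuoles, were above 0 in 4 of 15 with IL-4 (median -0.09). With PBS 7 of 15 were above 0 (median -0.04). Single genes lay further out, such as Ulk1, a kinase that starts autophagy, at 0.46 ± 0.24 and Atg10 at -0.38 ± 0.27 with IL-4 (authors' deposited table). Caspase and inflammasome genes had medians of -0.03 with IL-4 and 0.02 with PBS over 9 genes. DESeq2 called 0 of both lists, against 0.125% of all genes with IL-4 and 0.0366% with PBS. At an unadjusted p under 0.05 stood 0 of both, against 2.95% of all genes with IL-4 and 1.24% with PBS. The 8 prenylation genes, whose enzymes attach the lipid anchor of CaaX proteins such as Gbp2, had medians of -0.03 with IL-4 and 0.14 with PBS. Among them Pggt1b alone had an unadjusted p under 0.05, with IL-4. It is at 0.47 ± 0.20 with IL-4 and -0.41 ± 0.29 with PBS in the authors' deposited tables.

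Markers of fibroblasts and erythroid cells had lower sums in NIK KO with IL-4. Of 7 measured fibroblast markers 6 were below 0 with IL-4, with a summed mean of 141 in NIK KO and 413 in WT. DESeq2 called 1, Col3a1, as lower (authors' deposited table), against 0.125% of all genes called. At an unadjusted p under 0.05 stood 4, all lower, against 2.95% of all genes in either direction. With PBS their sum was 99.2 in NIK KO and 116 in WT. Of 5 erythroid markers 4 were below 0 with IL-4, with a summed mean of 154 in NIK KO and 341 in WT. DESeq2 called 0 of these, and 4 had an unadjusted p under 0.05, against the same 2.95% of all genes. With PBS the erythroid sum was 103 in NIK KO and 96.1 in WT. T and NK cell markers, of which 4 of 12 were measured with IL-4 and 3 with PBS, summed to 47.6 in NIK KO and 42.9 in WT with IL-4 and to 43.6 in NIK KO and 37.7 in WT with PBS. B cell markers (3 of 6 with IL-4, 2 with PBS) summed to 112 in NIK KO and 125 in WT with IL-4 and to 127 in NIK KO and 79.7 in WT with PBS. Neutrophil markers summed to 173 in NIK KO and 242 in WT with IL-4, and dendritic cell markers to 1809 in NIK KO and 1869 in WT. With PBS the neutrophil sum was 203 in NIK KO and 224 in WT, and the dendritic cell sum 335 in NIK KO and 334 in WT. Their part in the GTPase values was not tested.

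The change of the NIK KO effect between treatments was not itself used to choose the members. It was tested by subtracting the log2 fold change with PBS from that with IL-4. Iigp1 and Gm4951 stood out at both treatments in the contrast that chose them, so their differences are not independent of that choice. Of 9 members 0 passed (z test, Benjamini-Hochberg adjusted p of 1.00 for each, unadjusted p from 0.282 to 0.988, 0 under 0.05), against 0.0149% of 13384 genes called and 0.867% at an unadjusted p under 0.05. Gbp2 had the largest difference in size, -0.46 ± 0.43 (95% interval -1.29 to 0.38). Iigp1 had 0.01 ± 0.55 (-1.06 to 1.08) and Gm4951 0.21 ± 0.44 (-0.65 to 1.07). The 95% interval reached past 1 log2 unit, a 2-fold change of the genotype difference, for Iigp1, Gm4951, Gbp2 and Gbp5 (-1.36 to 0.94) and stayed within it for the other 5. The errors of both tables were taken as independent, although each mouse gave cells to both. With errors correlated at 0.5, members called stayed at 0 while 20 of all genes were called instead of 2. The values rest on the direction of the PBS table. With it turned, Iigp1 stood at 2.44 ± 0.55 and Gm4951 at 2.25 ± 0.44. Turned, the difference is the sum of the fold changes that chose these genes, so it tests nothing.

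Between treatments, with the direction read here, most members had a lower recovered mean with IL-4 than with PBS in both genotypes, while most genes had a higher one. This comparison runs across tables normalized separately and carries no test. Scaling to equal sums shifts every ratio by 0.22 in NIK KO and 0.23 in WT on the log2 scale. The higher mean of most genes is therefore not a result, and counts below 0 depend on the scale. The median over 11668 genes of base mean 10 or more in both tables was 0.27 in NIK KO and 0.26 in WT (log2 of the mean with IL-4 over the mean with PBS), and 25.4% of genes in NIK KO and 23.8% in WT were below 0. Of the members, 8 of 9 in NIK KO and 7 of 9 in WT were below 0, with medians of -0.50 in NIK KO and -0.44 in WT. Relative to the median of all genes, 9 of 9 in NIK KO and 8 of 9 in WT were below it, the exception in WT being Gbp2 at 0.07. With the tables scaled to equal sums it was 8 of 9 in each genotype, the exceptions being Gm4951 in NIK KO at 0.04 and Gbp2 in WT at 0.11. With the PBS table turned, 5 of 9 in NIK KO and 9 of 9 in WT were below 0.

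Iigp1 was the furthest, at 0.533 of the PBS level in NIK KO and 0.530 in WT (1.24 in NIK KO and 0.228 in WT with the PBS table turned), and 2.49% of genes in NIK KO and 2.20% in WT had a lower ratio. Gbp3 was at 0.550 in NIK KO and 0.587 in WT, and Igtp at 0.583 in NIK KO and 0.669 in WT. Gbp5 was at 0.638 in NIK KO and 0.739 in WT, and Gbp7 at 0.705 in NIK KO and 0.673 in WT. Irgm1 was at 0.735 in NIK KO and 0.833 in WT, and Irgm2 at 0.715 in NIK KO and 0.842 in WT. The pair from chromosome 18 thus parted: Gm4951 was at 1.20 of the PBS level in NIK KO and 1.03 in WT, and relative to the median of all genes at -0.01 in NIK KO and -0.21 in WT on the log2 scale. Gbp2 was at 0.919 in NIK KO and 1.26 in WT.

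**Figure D5:**
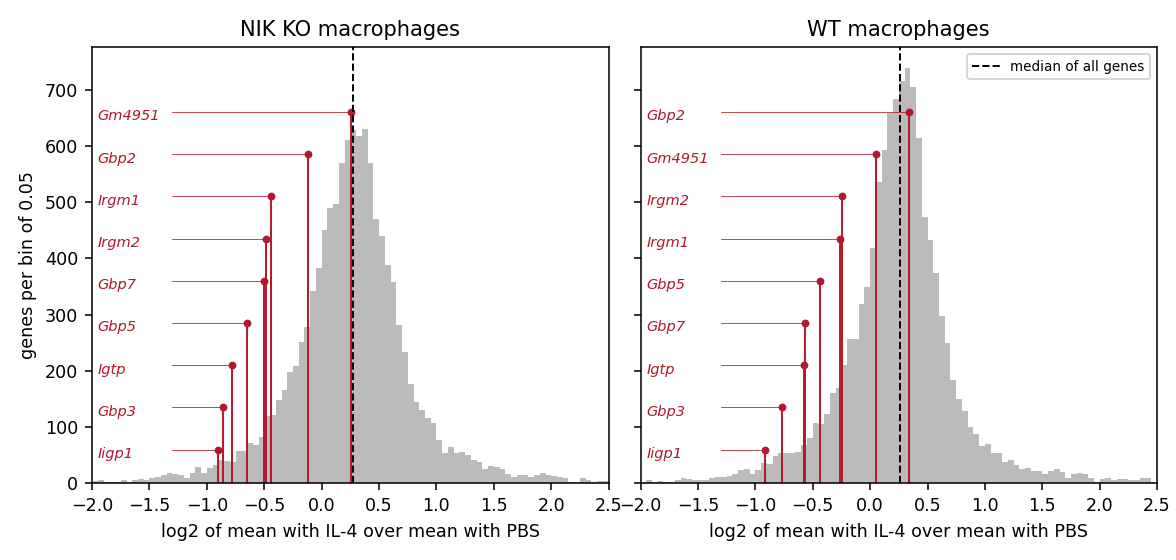
Histograms of the log2 ratio of the mean with IL-4 over the mean with PBS for 11668 genes in NIK KO (left) and WT (right), with the 9 GTPase genes as red lines whose heights only separate the labels. Most GTPase genes lie left of the median of all genes (dashed, 0.27 in NIK KO and 0.26 in WT), with Iigp1 lowest in both panels.

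Among related lists, antiviral genes of the type I response had medians of -0.50 in NIK KO and -0.50 in WT for the same ratio (27 of 33 below 0 in each). Interferon-γ targets other than GTPases were at -0.13 in NIK KO and -0.03 in WT, and the JAK, STAT, IRF and BATF genes at 0.30 in NIK KO and 0.13 in WT. Irf1 was at 0.82 in NIK KO and 0.86 in WT. Socs1, a brake on JAK signalling named here after its values were seen, was at 3.89 in NIK KO and 3.99 in WT. Other inducible GTPases did not lie as low as a list, with medians of 0.23 in NIK KO and 0.11 in WT over 18 genes. Within it Gbp6 was at -0.68 in NIK KO and -0.81 in WT, while Gbp9 was at 0.24 in NIK KO and 0.20 in WT.

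The genes most like Iigp1 over the 2 genotype comparisons, by distance between the pairs of Wald statistics among 9127 genes whose base mean reached 100 in both tables, were Fcrls (distance 0.453), Ciita (0.642), Fgl2 (0.682), Cd5l (0.789) and Cd74, the MHC class II invariant chain (1.02). For Gm4951 they were Map3k14 (0.996), Fcrls (1.12), Iigp1 (1.22), Ciita (1.22) and Cd5l (1.37). In the authors' deposited tables Fcrls is at 0.64 ± 0.17 with IL-4 and 0.58 ± 0.24 with PBS, and Ciita as given above. The measure rests on 2 values per gene that come from the same mice.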

How the data were processed

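RNA of 8 libraries from 4 mice was compared in 2 deposited tables, 1 per treatment, each over 4 libraries. The submitters' processing notes name Salmon 1.4.0, DESeq2 1.32.0 and build GRCm39. Their roles, the gene annotation and filters were not given in the sources used here. For each gene the authors deposited, per the file headers, a base mean (a signal, the mean of normalized counts), a log2 fold change with its SE on the log2 scale, and a Wald statistic, which is a score. They also deposited, per the file headers, a p-value for each gene and its adjusted form, which are taken as those of DESeq2's Wald test. With IL-4, 551 of 14193 genes have no adjusted p (base mean 3.49 or lower) and were left so. All libraries of a group are from separate mice, 2 per genotype.

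Group means were computed as 2 equal groups whose mean is the base mean and whose ratio is the fold change. The difference between treatments was tested with a two-sided z test and Benjamini-Hochberg adjustment over 13384 genes. The z test took the errors of both tables as independent, although the same mice stand behind both. Intervals of 95% are the value ± the normal quantile times the SE. Shared 31-base words and chromosomes came from GENCODE M21 (GRCm38), not the authors' build, so no gene coordinates are given, and promoter windows carry the RefSeq table's own build. Calls used an adjusted p under 0.05. The members, gene lists and alternatives were chosen with earlier results of these data known. Named beside the members were the extremes by Wald statistic of each list (base mean 10 or more), GTPase, receptor and signalling genes, and the 5 genes nearest in Wald statistics. Python 3.11.15, numpy 2.4.6, pandas 2.3.3, scipy 1.17.1 and matplotlib 3.10.9 were used. A result on 1 gene of the signalling list is not reported here.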

Additional observations from a re-analysis of the deposited data

How the results depend on the processing

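The count of members called with IL-4 was 1 in the deposited table, and it was also 1 at an adjusted p under 0.1, over genes of base mean 10 or more and without a filter. It was 2 at an unadjusted p under 0.05 and 0 when p came from t with 2 degrees of freedom, whose wide tails let 0 genes of either table pass. With PBS it was 0, and 3 at an unadjusted p under 0.05. The median IL-4 over PBS ratio of -0.50 in NIK KO became -0.73 at equal sums and -0.77 centred on all genes, and that of -0.44 in WT became -0.66 and -0.70. The other 19 alternatives for these summaries, and all 45 for single members, kept direction and side of the threshold. An alternative chosen after seeing the data turned the direction of the PBS table alone. The member median with PBS then became -0.39, and the members -1.21 (Iigp1), -1.02 (Gm4951), -0.32 (Irgm1), -0.54 (Irgm2), -0.39 (Igtp), -0.56 (Gbp2), -0.36 (Gbp3), -0.19 (Gbp5) and -0.16 (Gbp7). The difference between treatments, then the sum of both fold changes and no test, became 2.44 for Iigp1 and 2.25 for Gm4951. It reversed to 0.45 for Irgm1, 0.84 for Irgm2, 0.58 for Igtp, 0.65 for Gbp2, 0.62 for Gbp3 and 0.17 for Gbp5. The median IL-4 over PBS ratios became -0.13 in NIK KO and -0.78 in WT. No paired analysis was possible because the deposited tables hold 1 value per gene and comparison and none per library, and for the same reason leaving out each replicate was not run. Depth per library is unknown.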
